A study of Homo sapiens with 4 samples.

Results

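The genes described here encode 9 factors that make, process or destroy the mRNAs of replication-dependent histones: SLBP, LSM10, LSM11, ZNF473, CASP8AP2, NPAT, HINFP, ERI1 and UPF1. They were chosen by symbol, all 9 have a row among the 28814 rows of the count table, and all 9 passed the filter on low counts. These genes and the lists of related genes below were chosen with earlier results of these data known. The cells were 697 cells, a long-established human line of B-cell precursor acute leukaemia, kept for 24 h either with 1 µM MZ1 (2 libraries) or with an equal volume of DMSO, the solvent (2 libraries). MZ1 carries the bromodomain ligand JQ1 at one end and a ligand of the VHL ubiquitin ligase at the other, and through it BET proteins are degraded. The labels name no genetic change in either group, and they do not say whether replicates were separate cultures, so each p-value reflects library-to-library spread that could be technical.

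Replication-dependent histone mRNAs are the metazoan mRNAs that normally end in a stem-loop in place of a poly(A) tail. Their genes lie in clusters around which a nuclear structure, the histone locus body, forms with NPAT and CASP8AP2 (FLASH) as scaffolds. The stem-loop is bound by SLBP, and the U7 small nuclear RNP, whose ring holds LSM10 and LSM11 where spliceosomal rings hold SNRPD1 and SNRPD2, directs the cut of the precursor. When DNA synthesis stops, UPF1 and the exonuclease ERI1 take part in the decay of the mature message.

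The promoters of 3 of the genes are shown because they belong to the members with the largest changes: LSM10 and LSM11, which fell together, and HINFP, which rose. Each line is the 250 bases before the RefSeq start on the gene's own strand, at chr1:36397909-36398158 (minus strand) for LSM10, chr5:157743462-157743711 (plus strand) for LSM11 and chr11:119121330-119121579 (plus strand) for HINFP, in GRCh38.p14. Capitals mark matches, on either strand, to the motifs searched. The E-box was spelled CACGTG in the search. The CCAAT box was searched by the letters of its name. The GC box was spelled GGGCGG in the search. The E2F motif was searched in 4 spellings, TTTCCCGC, TTTCGCGC, TTTGCCGC and TTTGGCGC. The TATA box was spelled TATAAA in the search.
LSM10: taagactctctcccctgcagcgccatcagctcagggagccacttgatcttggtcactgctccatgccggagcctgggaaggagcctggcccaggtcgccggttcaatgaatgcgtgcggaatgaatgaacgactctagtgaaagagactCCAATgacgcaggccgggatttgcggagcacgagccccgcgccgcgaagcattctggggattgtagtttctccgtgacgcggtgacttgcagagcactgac
LSM11: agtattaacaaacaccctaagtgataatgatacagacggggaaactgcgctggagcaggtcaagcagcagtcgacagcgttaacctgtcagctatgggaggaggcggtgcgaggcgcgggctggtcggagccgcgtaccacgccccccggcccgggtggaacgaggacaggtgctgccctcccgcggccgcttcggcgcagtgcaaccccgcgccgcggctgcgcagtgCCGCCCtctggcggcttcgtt
HINFP: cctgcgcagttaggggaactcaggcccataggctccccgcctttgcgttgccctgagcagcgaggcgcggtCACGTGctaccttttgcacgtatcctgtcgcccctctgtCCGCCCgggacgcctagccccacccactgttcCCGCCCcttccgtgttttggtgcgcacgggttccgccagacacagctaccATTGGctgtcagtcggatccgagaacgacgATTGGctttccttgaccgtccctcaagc
LSM10 has a CCAAT box 101 bases before its start and LSM11 a GC box 21 bases before its start, so the pair shares none of the motifs searched. HINFP holds an E-box 179 bases before its start, and also 2 CCAAT boxes and 2 GC boxes. Windows were found for 7 of the 9 genes, of which 6 hold a GC box, 5 a CCAAT box, 1 the E-box, 1 an E2F motif (CASP8AP2) and 0 a TATA box. Among all 35116 windows of the same length the shares were 42.6% for the GC box, 32.0% for the CCAAT box, 6.34% for the E-box, 2.79% for the E2F motif and 10.7% for the TATA box. No matches overlapped in the 3 sequences printed, and a match is a description of letters, not of binding.

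The 4 libraries held 14544789 and 14246367 counted reads with MZ1 and 16005427 and 16488005 with DMSO. Levels below are TMM-normalised CPM (counts scaled to library size), each a share of its library, so less RNA per cell and fewer cells of a kind cannot be told apart. Log2 fold changes are MZ1 over DMSO. They are tested with edgeR's quasi-likelihood test, with Benjamini-Hochberg adjustment over 16862 genes, and a gene is called at an adjusted p below 0.05. Since 2 libraries against 2 cannot give an exact two-sided permutation p below 0.333, each call depends on the variance that edgeR shares across genes. Markers of B-cell precursors had a row in 9 of 9 cases, summed to 1230 and 1282 CPM with MZ1 and 3924 and 3911 CPM with DMSO, and all 9 fell. Of 5 myeloid markers 4 rose and 1 fell, with sums of 28.3 and 24.9 CPM with MZ1 and 6.66 and 5.31 CPM with DMSO, where MPO was at 0. Beside these marker counts, 41.5% of all tested genes were called lower and 43% higher. The 1 T-cell marker with a row, CD5, had 1 count in each MZ1 library and 1 over both DMSO libraries. The erythroid gene ALAS2 had 38 and 32 reads with MZ1 and 2 and 8 reads with DMSO and rose (log2 fold change 3.03). Mitochondrially encoded genes took 8.98% and 9.26% of MZ1 counts and 5.82% and 5.48% of DMSO counts. The part of these shifts in the results below was not tested.

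The 9 genes went in different directions. The U7 genes LSM10, LSM11 and ZNF473 fell, the histone locus genes CASP8AP2, NPAT and HINFP and the decay genes ERI1 and UPF1 rose, and SLBP was not called. Thus 8 of 9 were called, beside 84.4% of all tested genes: 5 of 9 (55.6%) were higher and 3 of 9 (33.3%) lower, beside 43% and 41.5%. Both MZ1 libraries lay on one side of both DMSO libraries for 9 of 9 genes, beside 91.3% of all genes, so neither count is far from the background. The median log2 fold change was 0.31 over the 9 genes and 0.05 over all tested genes. The genes differ from each other in size and sign, between a log2 fold change of −3.46 for LSM11 and 2.24 for HINFP.

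**Figure D1:**
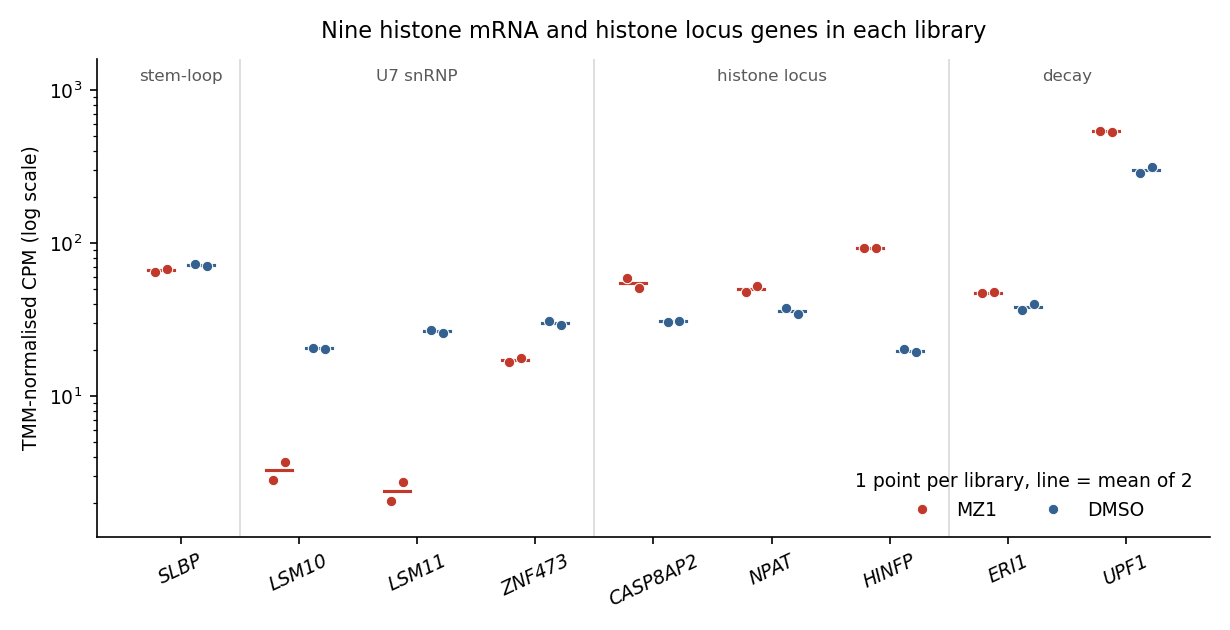
TMM-normalised CPM (log scale) of the 9 genes, with 1 point per library, MZ1 left of DMSO, and a line at the mean of 2 libraries. LSM10 and LSM11 lie between 2.05 and 3.69 CPM with MZ1 and between 20.2 and 27.0 CPM with DMSO, and HINFP lies at 92.7 and 93.2 CPM with MZ1 and at 20.2 and 19.2 CPM with DMSO.

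SLBP (ENSG00000163950; chromosome 4, 1692800 to 1712555, minus strand, GRCh38) encodes the protein that binds the histone stem-loop and stays with the mRNA through processing, export and translation. It had 64.9 and 68.0 CPM in MZ1 libraries, against 72.9 and 70.9 CPM in DMSO libraries. The MZ1 values were lower and the groups did not overlap, but the gap was small and the gene was not called (log2 fold change −0.11 ± 0.06, SE; edgeR adjusted p = 0.0858). Its direction depended on scaling: the log2 fold change was 0.16 with upper-quartile scaling (adjusted p = 0.0194) and −0.19 with library totals alone (adjusted p = 0.00576), and without DMSO replicate 2 it was called lower at −0.17 (adjusted p = 0.0393). In the same libraries 25 of 25 listed S-phase genes fell, beside 41.5% of all tested genes, with a median log2 fold change of −1.91. Among settings that keep all libraries, the count was 24, with 1 higher, under upper-quartile scaling. It was also 24 with DESeq2, with its size factors or with the stricter count filter. The part of this fall in the SLBP value was not tested. SLBP counts were 0.473 and 0.531 times those of PCNA, the sliding clamp of DNA replication, with MZ1 and 0.233 and 0.236 times with DMSO. This ratio does not depend on scaling, and its groups did not overlap. PCNA itself fell (log2 fold change −1.21) and was chosen after its values were seen, so the ratio does not settle the direction of SLBP.

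LSM11 (ENSG00000155858; chromosome 5, 157743695 to 157760709, plus strand) encodes the U7 ring protein whose long amino-terminal part contacts FLASH. It had the largest change of the 9 genes, with 2.05 and 2.75 CPM in MZ1 libraries against 27.0 and 25.96 CPM in DMSO libraries. Every DMSO library was far above every MZ1 library, and the log2 fold change was −3.46 ± 0.16 (SE; edgeR adjusted p = 1.1e-15), or 11.02-fold lower. Only 632 of the 16862 tested genes had a lower log2 fold change. The MZ1 value rests on 29 and 38 reads, with exact 95% Poisson intervals of 19.4 to 41.6 and 26.9 to 52.2 reads that cover counting error only, against 442 and 440 reads with DMSO.

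LSM10 (ENSG00000181817; chromosome 1, 36391238 to 36397892, minus strand), the other protein found in the U7 ring and not in spliceosomal rings, had 2.83 and 3.69 CPM in MZ1 libraries against 20.7 and 20.2 CPM in DMSO libraries. The groups were again far apart, at −2.65 ± 0.17 on the log2 scale (SE; edgeR adjusted p = 2.51e-13), or 6.27-fold lower, and 1206 tested genes were below it. The counts behind the MZ1 level were 40 and 51 reads, against 339 and 342 with DMSO. Log2 fold changes of −2 or less in called genes made up 12.2% of all tested genes, and LSM10 and LSM11 were the 2 of the 9 that had one. LSM11 had 0.725 and 0.745 reads for each LSM10 read with MZ1 and 1.30 and 1.29 with DMSO, so LSM11 was lower relative to LSM10 in both MZ1 libraries, a difference that was not tested.

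ZNF473 (ENSG00000142528; chromosome 19, 50025714 to 50053414, plus strand) encodes ZFP100, a zinc finger protein that binds LSM11 and the SLBP-bound stem-loop. It fell less than the ring proteins, to 16.8 and 17.7 CPM in MZ1 libraries against 31.0 and 29.03 CPM in DMSO libraries (log2 fold change −0.80 ± 0.10, SE; edgeR adjusted p = 6.59e-08). Of its exonic length 6.78% is shared with genes on the opposite strand, and the strand setting of the counting is not given in the sources used here.

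The Sm proteins form the ring of spliceosomal RNPs, and the U7 ring holds all of them but SNRPD1 and SNRPD2. All 7 Sm protein genes (median log2 fold change −1.62) and all 14 genes of snRNP assembly (median −1.41) fell, where 41.5% of all tested genes were called lower. Both lists were chosen with earlier results of these data known, so this contrast is a description only. With upper-quartile scaling or the stricter count filter 13 of the 14 assembly genes were called lower. SNRPD1, whose place in the ring LSM10 takes, fell to 26.4 and 28.3 CPM with MZ1, against 162 and 161 CPM with DMSO, a log2 fold change (± SE) of −2.57 ± 0.06 (edgeR adjusted p = 1.93e-21). SNRPD2, whose place LSM11 takes, fell least of the Sm genes, to 154 and 168 CPM with MZ1, against 231 and 227 CPM with DMSO (log2 fold change −0.51). The remaining Sm genes, which both kinds of ring share, had log2 fold changes of −1.62 for SNRPB, −1.21 for SNRPD3, −1.95 for SNRPE, −2.05 for SNRPF and −1.04 for SNRPG. Of their exonic length, overlapping genes cover 20.03% for SNRPB and 24.6% for SNRPD3.

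Count ratios within a library set the U7 proteins beside the Sm proteins they replace without any scaling. LSM10 had 0.107 and 0.130 reads for each SNRPD1 read with MZ1 and 0.128 and 0.125 with DMSO, and these groups overlapped. LSM11 had 0.0133 and 0.0164 reads for each SNRPD2 read with MZ1 and 0.117 and 0.115 with DMSO, with no overlap. LSM11 to SNRPD1 was also lower with MZ1, at 0.0777 and 0.0972, against 0.166 and 0.161 with DMSO, as was LSM10 to SNRPD2, at 0.0184 and 0.0220 with MZ1 against 0.0896 and 0.0890 with DMSO. Among assembly genes the smallest adjusted p belonged to GEMIN4 of the SMN complex (log2 fold change −2.72) and to WDR77 (−2.89) and PRMT5 (−1.98), which together methylate Sm proteins. Overlapping genes share 36.5% of the exonic length of WDR77 and 27.1% of that of PRMT5. The U7 RNA gene RNU7-1 has no row in the count table and was not analysed here.

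**Figure D2:**
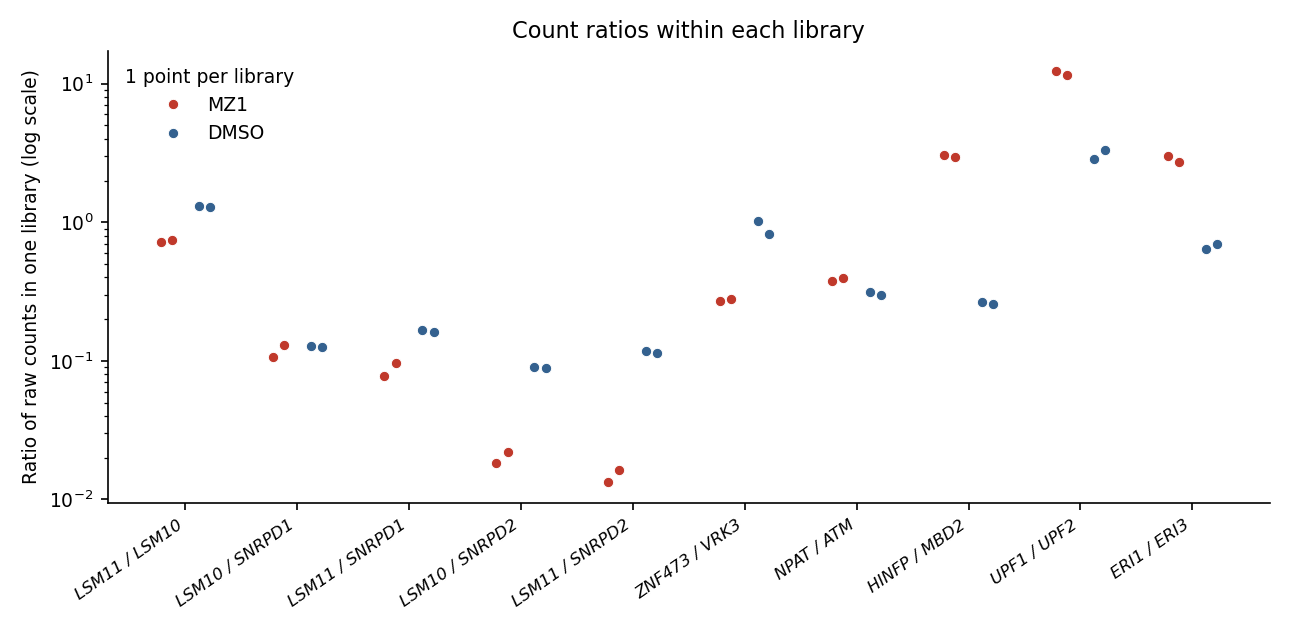
Ratios of raw counts within each library (log scale) for 10 pairs of genes, with 1 point per library and MZ1 left of DMSO. LSM10 to SNRPD1 is at 0.107 and 0.130 with MZ1 and 0.128 and 0.125 with DMSO, whereas LSM11 to SNRPD2 is at 0.0133 and 0.0164 with MZ1 and 0.117 and 0.115 with DMSO.

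The cut itself is made by a complex that histone precursors share with polyadenylated mRNAs, and its genes split. CPSF3, the endonuclease, rose to 124 and 124 CPM with MZ1, against 71.2 and 67.3 CPM with DMSO (log2 fold change 0.84 ± 0.06, SE; edgeR adjusted p = 6.69e-13). The other 4 of the 5 genes fell: the scaffold SYMPK by 1.52 on the log2 scale, CSTF2 by 1.84, CPSF2 by 1.38 and CSTF2T by 0.43. Among the partners of the cap and of SLBP 2 of 7 rose and 5 fell. Beside both lists, 43% of all tested genes were called higher and 41.5% lower. SRRT (ARS2), which joins the cap-binding complex to processing, rose by a log2 fold change of 0.49, and CCNF (cyclin F), which marks SLBP for destruction in G2, by 0.35. The cap-binding subunits NCBP1 and NCBP2 fell by 0.96 and 0.31, the second no longer called with upper-quartile scaling (−0.04, adjusted p = 0.485). The translation factors MIF4GD (SLIP1) and CTIF fell by 0.56 and 1.24.

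HINFP (ENSG00000172273; chromosome 11, 119121587 to 119136044, plus strand) encodes the zinc finger factor that binds histone H4 promoters and works with NPAT. It rose more than any other of the 9 genes, to 92.7 and 93.2 CPM in MZ1 libraries against 20.2 and 19.2 CPM in DMSO libraries. The replicates of each group nearly coincided and the groups were far apart, with a log2 fold change (± SE) of 2.24 ± 0.07 (edgeR adjusted p = 3.81e-19), or 4.72-fold. There were 2494 tested genes with a higher log2 fold change, and called genes with one of 2 or more made up 16.7% of all tested genes. MBD2, a methyl-DNA binding protein and known HINFP partner, moved the opposite way (log2 fold change −1.29). HINFP had 3.07 and 2.94 reads for each MBD2 read with MZ1 and 0.266 and 0.256 with DMSO.

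CASP8AP2 (ENSG00000118412; chromosome 6, 89829894 to 89874436, plus strand) encodes FLASH, which brings the cleavage complex to LSM11. It had 58.9 and 50.7 CPM in MZ1 libraries against 30.3 and 31.1 CPM in DMSO libraries. Both MZ1 values were higher, though they differed more from each other than the DMSO values did, and the log2 fold change was 0.84 ± 0.08 (SE; edgeR adjusted p = 9.78e-10). CASP8AP2 had 28.7 and 18.4 reads for each LSM11 read with MZ1 and 1.12 and 1.198 with DMSO. The pair was chosen after its values were seen, and the ratio restates the rise of CASP8AP2 and the fall of LSM11.

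NPAT (ENSG00000149308; chromosome 11, 108157215 to 108222642, minus strand), the scaffold that cyclin E and CDK2 phosphorylate at the start of S phase, had 47.5 and 52.0 CPM in MZ1 libraries against 37.4 and 34.2 CPM in DMSO libraries. The rise was modest and the groups did not overlap (log2 fold change 0.47 ± 0.08, SE; edgeR adjusted p = 4.56e-06). Its kinase subunits were lower: CDK2 had a log2 fold change of −0.79 and CCNE1 one of −2.48. Opposite-strand genes share 16.8% of the exonic length of CDK2. CCNE1 was at 1.84 and 2.46 CPM (26 and 34 reads) with MZ1, against 10.9 and 13.04 CPM (178 and 221 reads) with DMSO. CCNE2 was not called, at 23.0 and 19.01 CPM with MZ1 and 21.2 and 21.6 CPM with DMSO (edgeR adjusted p = 0.824), with 37.1% of its exons covered by opposite-strand genes. Upper-quartile scaling called it higher (log2 fold change 0.25, adjusted p = 0.0382). In the whole list of cyclins, CDK2 and transcription partners 1 of 8 rose and 5 fell, beside 43% and 41.5% of all tested genes. The 1 that rose was GON4L, whose Drosophila counterpart belongs to the histone locus body (0.43). Among those that fell were CCNA2 (−0.44), MBD2 and POU2F1 (−1.07), the octamer factor of H2B promoters. YY1 was not called (0.04, adjusted p = 0.372), though upper-quartile scaling called it higher, at 0.31, as did the stricter count filter, at 0.21.

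UPF1 (ENSG00000005007; chromosome 19, 18831938 to 18868236, plus strand) encodes the RNA helicase of nonsense-mediated decay that SLBP recruits to histone mRNA. It had 545 and 534 CPM in MZ1 libraries against 288 and 312 CPM in DMSO libraries. The MZ1 values were higher with no overlap (log2 fold change 0.85 ± 0.04, SE; edgeR adjusted p = 3.34e-15). Its partners in nonsense-mediated decay were mixed, with 3 of 10 higher and 5 lower, beside 43% and 41.5% of all tested genes. With upper-quartile scaling 5 were higher and 4 lower, and with the stricter count filter 5 were higher and 5 lower. The kinase SMG1 (log2 fold change 0.73), UPF3B (1.01) and STAU1 (0.47) rose, whereas UPF2, which activates the helicase, fell by 1.10 and SMG5 by 0.78. UPF1 had 12.3 and 11.5 reads for each UPF2 read with MZ1 and 2.85 and 3.32 with DMSO.

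ERI1 (ENSG00000104626; chromosome 8, 9002147 to 9116746, plus strand) encodes the exonuclease that trims the stem-loop. It had the smallest called change, at 47.0 and 47.6 CPM in MZ1 libraries against 36.7 and 39.7 CPM in DMSO libraries (log2 fold change 0.31 ± 0.07, SE; edgeR adjusted p = 0.000506). The groups did not overlap, but the effect was near the size of the shift that scaling makes in all genes, 0.27 with upper-quartile scaling. That shift was upward, and over the 14 alternatives the ERI1 log2 fold change lay between 0.21 and 0.58. ERI3, its paralog, fell by 1.79, so ERI1 had 3.01 and 2.70 reads for each ERI3 read with MZ1 and 0.641 and 0.692 with DMSO.

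Of 18 tested genes listed for uridylation, decapping and decay of histone mRNA, cofactors included, 5 rose and 13 fell (median log2 fold change −0.78). Beside these, 43% of all tested genes were called higher and 41.5% lower. With upper-quartile scaling, the stricter count filter or DESeq2 12 were called lower, and with no count filter 4 were called higher. Those that rose with the smallest adjusted p were PNRC2, which links UPF1 to decapping (1.52), the decapping enzyme DCP2 (1.43) and the uridylyl transferase TUT7 (1.46). TUT7 had 74.8 and 74.5 CPM with MZ1 and 27.9 and 26.3 CPM with DMSO. The fallers with the smallest adjusted p were LSM7 (−1.87) and LSM2 (−1.88), of the ring that binds the uridylated end, and EXOSC10 (−1.94), a nuclease of the nuclear exosome, with 39.3% of its exons covered by antisense genes. All 7 of LSM1 to LSM7 fell, with LSM4 the least changed (−0.50).

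**Figure D3:**
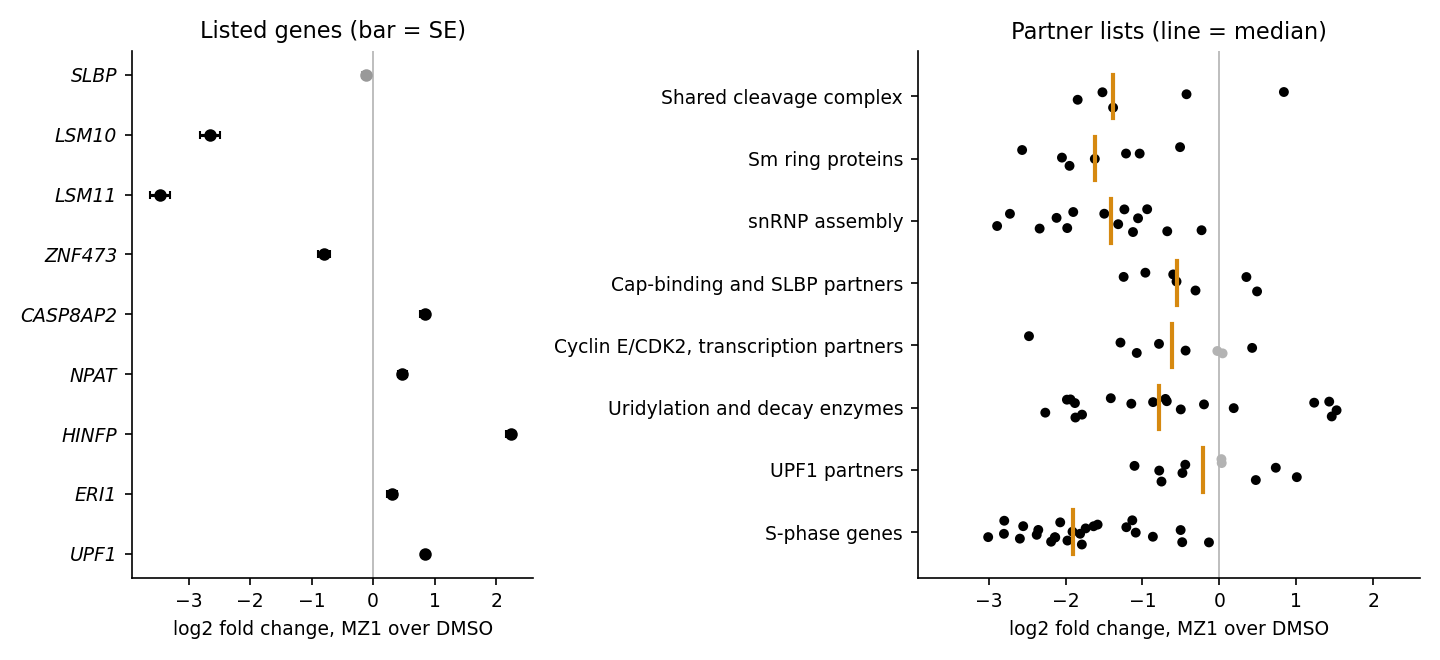
Log2 fold changes, MZ1 over DMSO, of the 9 genes (left, bar = SE) and of the genes of 8 partner lists (right, 1 point per tested gene, line = median). Black points are called and grey points are not. The Sm, snRNP assembly and S-phase lists lie wholly below 0, with medians of −1.62, −1.41 and −1.91. The uridylation and decay list lies between −2.26 and 1.52. Under upper-quartile scaling, not drawn, 1 of the 25 S-phase genes was higher. With DESeq2, its size factors or the stricter count filter, also not drawn, 24 of the 25 were called lower. These settings keep all libraries.

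The target messages were measured in the same libraries. The 57 replication-dependent histone genes with a row summed to 8407 and 8682 CPM with MZ1 and to 129 and 126 CPM with DMSO. The kit named in the labels in general use selects polyadenylated RNA, and what share of these reads came from histone RNA without a tail was not tested. Near-identical histone copies may also share or lose reads.

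Some of the 9 genes start close to a gene on the opposite strand, and these neighbours did not always move alike. NPAT and ATM, the DNA damage kinase gene, start 158 bases apart, and ATM had 127 and 132 CPM with MZ1 and 119 and 114 CPM with DMSO, a difference of 0.15 ± 0.05 on the log2 scale (SE; edgeR adjusted p = 0.00998). ATM did not pass when DMSO replicate 1 was left out (log2 fold change 0.13, adjusted p = 0.054) or MZ1 replicate 2 was (0.12, adjusted p = 0.0864). Nor did it pass without DMSO replicate 2 (0.079, adjusted p = 0.262), with library totals alone (0.072, adjusted p = 0.192) or with no count filter (0.072, adjusted p = 0.205), where the difference itself was also smaller. NPAT had 0.375 and 0.394 reads for each ATM read with MZ1 and 0.314 and 0.300 with DMSO, with 1.90% of its exons inside ATM exons. ZNF473 and VRK3, a kinase family gene, start 232 bases apart and went opposite ways, since VRK3 rose to 61.5 and 63.4 CPM with MZ1, against 30.2 and 35.5 CPM with DMSO (log2 fold change 0.92 ± 0.08, SE; edgeR adjusted p = 6.66e-11). Beside SLBP, the long noncoding gene AC016773.1 starts 266 bases away and had 48 and 60 reads with MZ1 and 7 and 34 with DMSO. It was called higher (log2 fold change 1.64 ± 0.38, SE; edgeR adjusted p = 0.000385), but not without a count filter (1.57, adjusted p = 0.0866). Its log2 fold change was 0.89 without DMSO replicate 1 and 3.11 without DMSO replicate 2, and its DMSO libraries differed from each other by more than its MZ1 libraries.

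To set the 9 genes side by side, counts were divided by the summed length of each gene's annotated exons and scaled to the library total (TPM), used for order within a group only. With MZ1 the order was UPF1 (172 ± 3.78 TPM, SD, n = 2), SLBP (90.2 ± 2.27), HINFP (25.98 ± 0.0820), ERI1 (20.4 ± 0.0267), CASP8AP2 (18.4 ± 2.10), NPAT (18.1 ± 1.01), ZNF473 (6.87 ± 0.214), LSM10 (5.98 ± 1.07) and LSM11 (1.00 ± 0.198). CASP8AP2 overlapped NPAT, and ZNF473 overlapped LSM10, so these neighbours did not differ beyond their spread. With DMSO the order was SLBP (122 ± 0.669 TPM), UPF1 (120.3 ± 8.62), LSM10 (47.1 ± 0.214), ERI1 (20.6 ± 1.43), NPAT (16.4 ± 0.798), ZNF473 (14.99 ± 0.480), LSM11 (13.9 ± 0.194), CASP8AP2 (12.95 ± 0.415) and HINFP (6.90 ± 0.134). Here SLBP and UPF1 overlapped. The DMSO order depended on the length used. With the longest transcript as length UPF1 was highest with DMSO, at 145.7 ± 9.92 TPM, above SLBP at 94.4 ± 0.858 with no overlap. ZNF473 then came before NPAT, but these 2 overlapped. With MZ1 the order was the same by either length. HINFP was lowest of the 9 with DMSO by summed exons, which come to 9836 bases, whereas its longest transcript has 3486. With the longest transcript as length HINFP was at 58.3 TPM with MZ1 and 14.7 TPM with DMSO, where LSM11 was lowest, at 10.4 TPM.

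By the smallest Euclidean distance of centred log2 CPM over the 4 libraries, among 2662 protein-coding genes of similar mean level, the patterns most like that of LSM11 were those of PARVB (distance 0.0541), SRI (0.0858) and FAM81A (0.0876). Among 4266 such genes those most like HINFP were FYN (0.00504), YPEL1 (0.0425) and DNASE1 (0.0687). FYN, a Src-family kinase gene, had 146 and 146 CPM with MZ1 and 31.6 and 30.1 CPM with DMSO. With 4 libraries in 2 groups such likeness reflects little more than an equal fold change.

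**Figure D4:**
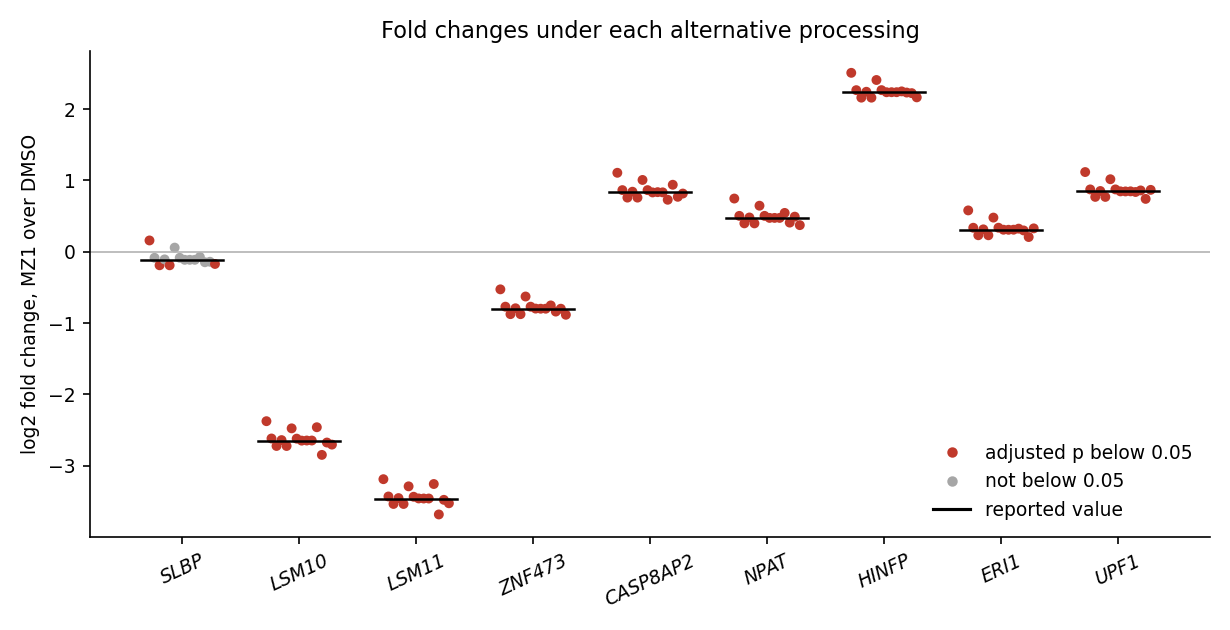
Log2 fold changes, MZ1 over DMSO, of the 9 genes under 14 alternative ways of processing, with 1 point per alternative and a line at the reported value. Red points have an adjusted p below 0.05 and grey points do not. SLBP, between −0.19 and 0.16, is the gene whose points lie on both sides of 0.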

How the data were processed

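RNA-seq counts were analysed for 697 cells, 2 MZ1 and 2 DMSO libraries, grouped by title and treatment label. The authors deposited unnormalised read counts by Ensembl gene ID, per the file headers. The submitters' processing notes list HISAT2 2.2.0 and hg38. How reads were assigned to genes, and with which strand setting, is not given in the sources used here. TRIzol total RNA and the Illumina TruSeq RNA kit are named per the labels' protocols. Positions for the 28814 rows came from GENCODE release 29 (GRCh38), which holds every ID, and promoter windows are from RefSeq (GRCh38.p14).

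Genes passing filterByExpr (16862) were scaled with TMM and fitted in edgeR 4.0.16 (R 4.3.3; glmQLFit with legacy = FALSE, glmQLFTest, treatment only). A standard error is the unshrunk log2 coefficient divided by the root of F. Depth was 14246367 to 16488005 counts per library; intervals cover counting error only, as PCR copies cannot be told from molecules. Replicates differed by more than sampling noise (chi-square per degree of freedom 1.96 for MZ1 and 2.08 for DMSO). In simulated counts (16184 genes) 41 genes were changed 1.25-fold, 54 genes 1.5-fold, 46 genes 2-fold and 46 genes 4-fold. Of these 46.3%, 64.8%, 89.1% and 93.5% were recovered in that order, with 6 false calls among 144. Far fewer genes changed there than the 84.4% called in the data, so these shares need not hold for the real comparison. Alternatives were DESeq2 1.42.0, voom in limma 3.58.1, the legacy edgeR setting, other scalings and count filters, the replicate block and each library left out. The members and lists were chosen with earlier results of these data known. Besides the 9 genes, the text names all members of lists with 9 or fewer tested genes, otherwise up to 3 rising and 3 falling genes ranked by adjusted p, opposite-strand neighbours starting within 2000 bases, and 3 genes of most similar pattern for the member most strongly called each way. Some genes under this rule are left out here. PCNA, ERI3, LSM4 and the pairs set in ratios were chosen after their values were seen.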

Additional observations from a re-analysis of the deposited data

How the results depend on the processing

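Upper-quartile scaling moved all log2 fold changes up by a median of 0.271, so that 58.6% of calls were rises, and the stricter count filter moved them by 0.171. For LSM10, LSM11, ZNF473, CASP8AP2, NPAT, HINFP, ERI1 and UPF1 the direction and the call held under all 14 alternatives, with log2 fold changes of −2.85 to −2.38, −3.69 to −3.19, −0.88 to −0.53, 0.73 to 1.11, 0.37 to 0.75, 2.16 to 2.51, 0.21 to 0.58 and 0.74 to 1.12 in that order and a highest adjusted p of 0.0384 (ERI1). SLBP turned to 0.16 with upper-quartile scaling and to 0.058 (not called) with the stricter filter, and was called lower with library totals alone and without a filter (−0.19 each). With each library left out it was between −0.17 and −0.073. CCNE2 turned to 0.25 with upper-quartile scaling, 0.14 with the stricter filter, 0.0023 with DESeq2 size factors, 0.0016 in DESeq2 and, with each library left out, lay between −0.16 and 0.10. YY1 turned to −0.034 with library totals alone and without a filter, and with each library left out lay between −0.026 and 0.045. YY1 was called higher with upper-quartile scaling (0.31) and with the stricter filter (0.21). Among named genes outside the 9, a call was lost 7 times and gained 3 times (YY1 under these settings and CCNE2 with upper-quartile scaling). The cause was not tested. With upper-quartile scaling 5 of 10 UPF1 partners, 3 of 8 cyclin and transcription partners and 1 of 25 S-phase genes were higher, and with the stricter filter 5, 2 and 0. With the replicate block 7170 genes were higher and 6915 lower (7246 and 6991 without it) and no call among the 9 genes changed. Same-numbered libraries did not deviate together (correlation across genes 0.014), so the numbers were not taken to pair them. The 91 reads of LSM10 and 67 of LSM11 over both MZ1 libraries limit the precision of their folds.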
